A study of Mus musculus with 6 samples.

Results

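The genes described here belong to the synaptic vesicle fusion machinery: Snap25, Stx1a, Vamp1, Vamp2, Cplx1, Cplx2, Syn1 and Syn2, 8 in all, measured in the deep cerebellar nuclei of mice trained in eyeblink conditioning. They were represented by all probe sets, the groups of short probes that read a transcript, whose platform annotation named a single gene, 1 of these 8, under its current or an older symbol. There were 18 such probe sets among 36701, and the 8 genes are 8 of 15970 genes that probe sets with a single symbol named.

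The tissue was centred on the anterior interpositus nucleus, the cerebellar output nucleus on which the conditioned eyeblink depends. All mice were male C57BL/6 mice of 11 to 18 weeks, carried wire electrodes in the left eyelid and a headstage, and were trained for 7 days after 3 days of recovery. In the paired group a tone of 352 ms was followed by a shock of 100 ms near the eye, which began 252 ms after tone onset and ended with the tone. The unpaired group received tone and shock apart, in pseudorandom order. Each group was a pool of 10 to 15 nuclei, ipsilateral to the implanted eye, that was measured once on each of 3 array designs labelled A, B and C, so 6 arrays were made and no group had a replicate. No difference between the pools therefore has a p-value or an error from replicates, and the number of arrays limits the precision. In pooled tissue, fewer cells of a type and less RNA per cell cannot be told apart.

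At a nerve terminal, a vesicle fuses when a vesicle SNARE protein (Vamp1 or Vamp2, the synaptobrevins) zips up with 2 SNARE proteins of the plasma membrane, encoded by Snap25 and Stx1a. Complexins (Cplx1 and Cplx2) bind the assembled complex and set how tightly fusion is tied to calcium. Synapsins (Syn1 and Syn2) coat vesicles and hold them in the reserve pool until phosphorylation releases them. Output neurons of the nuclei fire fast and steadily, and Vamp1 is the main synaptobrevin of many neurons of the hindbrain and spinal cord.

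The sequences just upstream of the annotated start are shown for Vamp1 and Syn1, the genes with the highest and the lowest mean difference between the pools, and for Cplx1, the only gene with several kept probe sets that all pointed one way. RefSeq windows (build GRCm38.p6) were found for 6 of the 8 genes, with 2 windows for Syn2; Snap25 and Vamp2 had no entry. Capitals mark the GC box GGGCGG, the cyclic AMP response element TGACGTCA with its short form TGACG, and TTCAGCACC, the left arm of the element bound by the neuronal repressor REST, each searched on both strands. The windows are chr6:125215331-125215580 on the plus strand, chr5:108550028-108550277 on the minus strand and chrX:20920919-20921168 on the minus strand, each 250 bases long and written 5′ to 3′.
Vamp1: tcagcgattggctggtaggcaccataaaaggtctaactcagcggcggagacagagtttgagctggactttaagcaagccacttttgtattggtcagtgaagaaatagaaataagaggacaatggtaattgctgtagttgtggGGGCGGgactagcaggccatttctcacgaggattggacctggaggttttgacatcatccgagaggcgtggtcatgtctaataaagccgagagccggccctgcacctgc
Cplx1: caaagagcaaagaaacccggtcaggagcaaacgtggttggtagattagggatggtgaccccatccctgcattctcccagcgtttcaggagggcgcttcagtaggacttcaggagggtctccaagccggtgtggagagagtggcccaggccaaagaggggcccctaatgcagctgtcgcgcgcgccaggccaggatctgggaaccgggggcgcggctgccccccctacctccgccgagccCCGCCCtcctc
Syn1: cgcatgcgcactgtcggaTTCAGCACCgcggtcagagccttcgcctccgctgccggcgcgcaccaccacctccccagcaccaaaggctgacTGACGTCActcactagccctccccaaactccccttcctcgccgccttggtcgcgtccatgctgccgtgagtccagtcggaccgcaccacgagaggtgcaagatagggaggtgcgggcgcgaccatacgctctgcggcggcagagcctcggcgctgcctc

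Among the windows of the 8 genes, the Syn1 window alone held the full cyclic AMP response element and the left arm of the REST element. The first began 159 bases and the second 232 bases upstream of the start. Of all 32851 windows, 1.55% held TGACGTCA and 0.301% held TTCAGCACC. The short form TGACG, which the full element contains, was in the Syn1 and Stx1a windows and in 17.8% of all windows. The GC box was in windows of Vamp1, Cplx1, Stx1a and Syn2, 4 of 7, and in 32.7% of all. None of the 7 windows held TATAAA, which 12.4% of all windows held. These matches describe the letters in a window and say nothing about what is bound there.

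Signals are given on the log2 scale, as signal strength of a probe set on 1 array, with the paired array moved by at most 0.010 so that the log2 ratio of bright probe sets had a median of 0 within each design. Signal depends on the probes as well as on the transcript, so differences are taken only within a probe set, between the pools. Ranks and percentiles say where a probe set's signal lay on its array and are no measure of transcript amounts. Probe sets with a mean signal at or above the median of their design were kept, which gave 18351 in all. Of the 18 probe sets of the release genes, 14 were kept, from 7 genes; Stx1a had none. Ranks count from the brightest probe set, of 12422 on design A, of 12411 on design B and of 11868 on design C.

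The labelled tissue was checked against markers. Pvalb, which Purkinje cells also express, the vesicular glutamate transporter gene Slc17a6 and the neurofilament gene Nefl are all abundant in deep nuclear neurons. By their brightest probe sets they lay at percentiles 99.996, 99.95 and 99.91 of signal within a design in the unpaired pool. The brightest Slc17a6 probe set carries a suffix that marks probes that can also bind related sequences. The other kept Slc17a6 probe sets, which carry no suffix, lay at percentiles 79.3 and 81.9. Of 18 listed markers of deep nuclear projection neurons 11 were kept, while the transcription factor genes Meis2, Tbr1, Lhx2 and Lhx9 had no kept probe set. Probe sets for markers of cerebellar cortex also gave signal: Purkinje cell Pcp2 lay at percentile 97.5 by its brightest probe set and granule cell Cbln1 at 94.8.

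**Figure D1:**
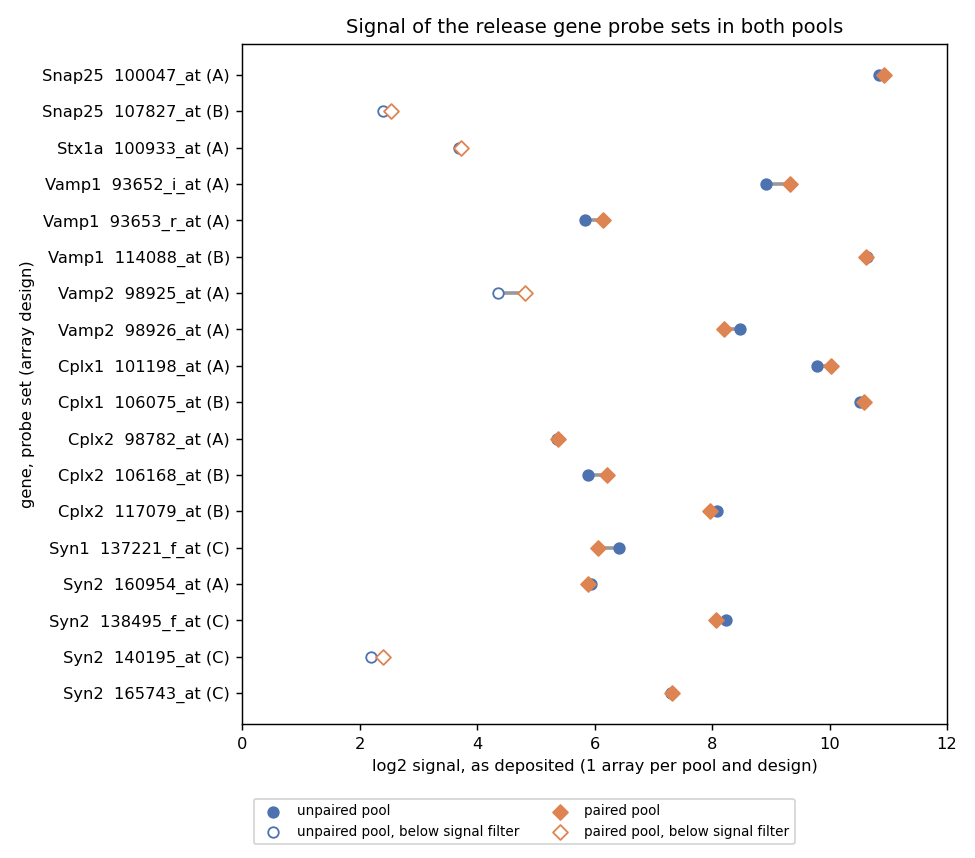
Log2 signal of each of the 18 probe sets of the release genes in the unpaired pool (circles) and the paired pool (diamonds), with 1 array per pool and design and no replicates; open symbols mark the 4 probe sets below the signal filter. In the unpaired pool the signals run from percentile 5.80 to percentile 99.96 of their design. That range is between probe sets and is no yardstick for the distance between the pools.

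The release genes did not move together between the pools. Of the 14 kept probe sets 8 were higher and 6 lower in the paired pool, a split that became 6 and 7 under quantile scaling. With only the probe set of highest rank per gene it was 2 and 5. The 14 had a median log2 ratio (paired minus unpaired) of 0.018 against 0 for all kept probe sets. None passed 1.5-fold, a size that 0.681% of all kept probe sets passed. At a smaller step, a log2 ratio of 0.32 or more in either direction, were 3 of 14, against 9.75% of all. A Vamp1 and a Cplx2 probe set were past it upward, as were 4.68% of all, and the Syn1 probe set downward, as were 5.07%. The log2 ratios ran from -0.36 to 0.41, inside the range between the 1st and 99th percentile of all kept probe sets, which was -0.50 to 0.48.

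**Figure D2:**
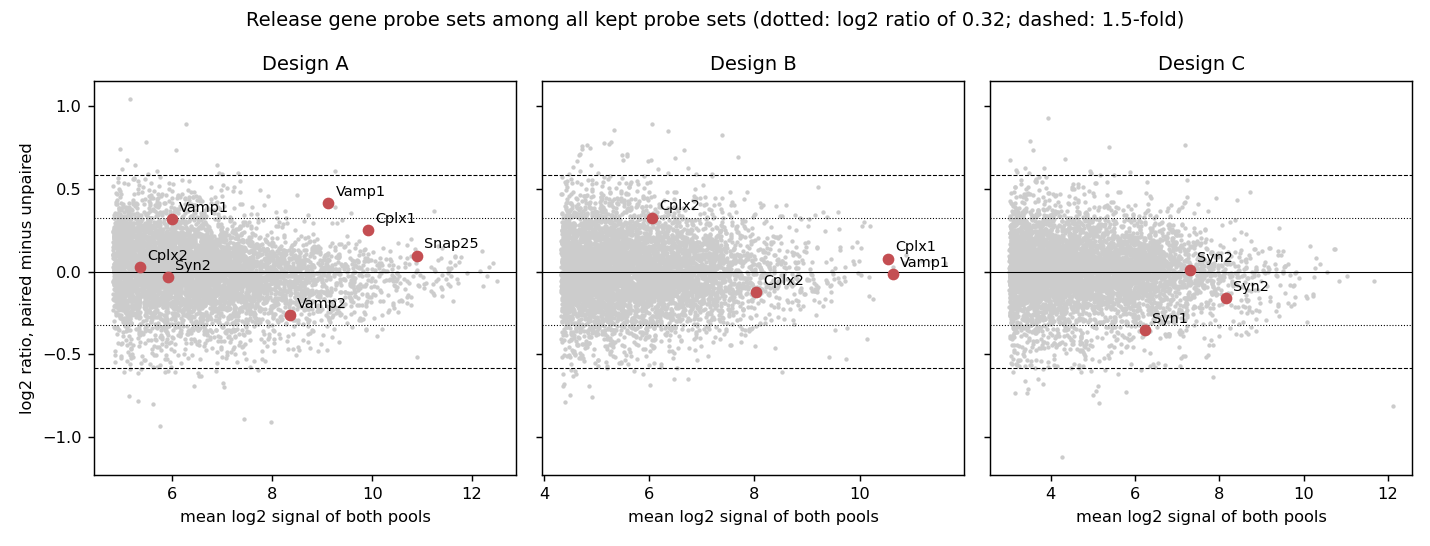
Log2 ratio, paired minus unpaired, against mean log2 signal for all kept probe sets (grey) of designs A, B and C, with the 14 kept probe sets of the release genes in red and dotted lines at a log2 ratio of 0.32 and dashed lines at 1.5-fold. All red points lie within 1.5-fold, and several probe sets of the same gene sit on both sides of 0.

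Snap25, the plasma membrane SNARE gene whose product is cut by botulinum toxin A, had a probe set with a signal near the top of design A. On design A, 100047_at read a log2 signal of 10.85 for the unpaired pool (rank 59) and 10.94 for the paired pool (rank 51), which gave a log2 ratio of 0.097. Among the 500 probe sets nearest to it in signal, 47.2% had a difference at least as large. The pools thus differed there about as much as at a typical probe set of like signal. The other Snap25 probe set, 107827_at on design B, was faint: its deposited log2 signals of 2.39 and 2.52 lay below the floor of 3.15 and give no fold.

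Stx1a, the partner of Snap25 on the plasma membrane, was read by a single probe set, 100933_at on design A, which did not pass the signal filter. The unpaired pool read 3.69 and the paired pool 3.74, at percentiles 32.6 and 32.1 of the design. The log2 ratio of 0.047 turned to -0.026 under another scaling, and 81.6% of probe sets of like signal differed at least as much.

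Vamp1 had the largest higher value among the kept probe sets of the group, but its probe sets differed. On design A, 93652_i_at read 8.92 for the unpaired and 9.33 for the paired pool, ranks 448 and 297, which gave a log2 ratio of 0.41 or 1.33-fold. Of the 500 probe sets nearest in signal, 2.4% differed as much in either direction and 0.4% were higher. The second probe set on that design, 93653_r_at, stood at 5.83 and 6.15, a log2 ratio just under the smaller step, at 0.318, with 10.4% of its neighbours as far apart. Both were designed from the same transcript entry, per the annotation, and carry a suffix that marks relaxed probe selection, so they are not independent measurements.

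On design B, Vamp1 probe set 114088_at gave no such difference. It read 10.64 for the unpaired and 10.63 for the paired pool, ranks 6 and 7 of the design, with a log2 ratio of -0.016. This is among the brightest signals on design B, and 94.6% of probe sets of like signal differed at least as much. The Vamp1 mean over the 3 probe sets was 0.24, which 14.9% of all gene means equalled or passed in size, and without the suffixed probe sets it was -0.016.

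Vamp2, the synaptobrevin that prevails in forebrain terminals, had probe sets in opposite directions on design A. The bright one, 98926_at, read 8.48 for the unpaired (rank 676) and 8.22 for the paired pool (rank 802), a log2 ratio of -0.27 or 1.20-fold lower, and 11.8% of its neighbours differed as much. The dimmer one, 98925_at, stood at 4.35 and 4.83, a log2 ratio of 0.47, and its mean lay under the signal filter of design A, which was 4.82. Of its neighbours in signal 3.4% differed as much. With no signal filter the Vamp2 mean was 0.10 instead of -0.27, so the direction for the gene depends on whether the dimmer probe set is counted.

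Cplx1, a complexin gene, was the only gene with 2 or more kept probe sets that all pointed the same way. On design A, 101198_at read 9.79 for the unpaired and 10.04 for the paired pool (ranks 190 and 138), a log2 ratio of 0.25. Of its 500 neighbours in signal 11.4% differed as much and 1.8% were higher. On design B, 106075_at was at 10.51 and 10.59, rank 9 in both pools, a log2 ratio of 0.078 that became 0 under quantile scaling. Of all 2403 genes with 2 kept probe sets, 50.7% also had both in the same direction.

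Cplx2, the second complexin, had values on both sides of 0. On design B, 106168_at read 5.88 for the unpaired and 6.21 for the paired pool, a log2 ratio of 0.33, whereas 117079_at read 8.09 and 7.96, a log2 ratio of -0.13. The probe set on design A, 98782_at, stood at 5.35 and 5.38, with a log2 ratio of 0.025 that turned to -0.0096 under another scaling. The pair on design B differed by 0.45 in log2 ratio although both read the same arrays. The one of higher rank, 117079_at, was the one that read lower for the paired pool.

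Syn1, the X-linked synapsin gene whose upstream window is printed above, had the lowest value of the group. Its single probe set, 137221_f_at on design C, read 6.42 for the unpaired (rank 949) and 6.06 for the paired pool (rank 1269). The log2 ratio was -0.36, or 1.28-fold lower, and 3.8% of the 500 probe sets nearest in signal differed as much. Of all gene means, 4.88% were as large in either direction. The suffix of this probe set marks probes that can also bind related sequences, and no second probe set was there to compare.

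Syn2, a synapsin gene read by 4 probe sets, had 2 kept probe sets lower and 1 flat in the paired pool, and a dim one higher. On design C, 138495_f_at read 8.24 for the unpaired and 8.08 for the paired pool, a difference of -0.16 in log2, and 165743_at read 7.31 and 7.32, a log2 ratio of 0.012. The probe set 138495_f_at carries the same suffix as that of Syn1, so its probes can also bind related sequences. On design A, 160954_at was at 5.93 and 5.90, a log2 ratio of -0.035. In signals of like strength, 32.0%, 93.0% and 81.4% of probe sets differed as much, so none of these stood out from their neighbours. The remaining one, 140195_at on design C, was below the filter, under the floor of 2.25 for the unpaired pool and at 2.39 for the paired pool. Against the floor its log2 ratio was 0.14, and 25.8% of its neighbours differed as much.

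**Figure D3:**
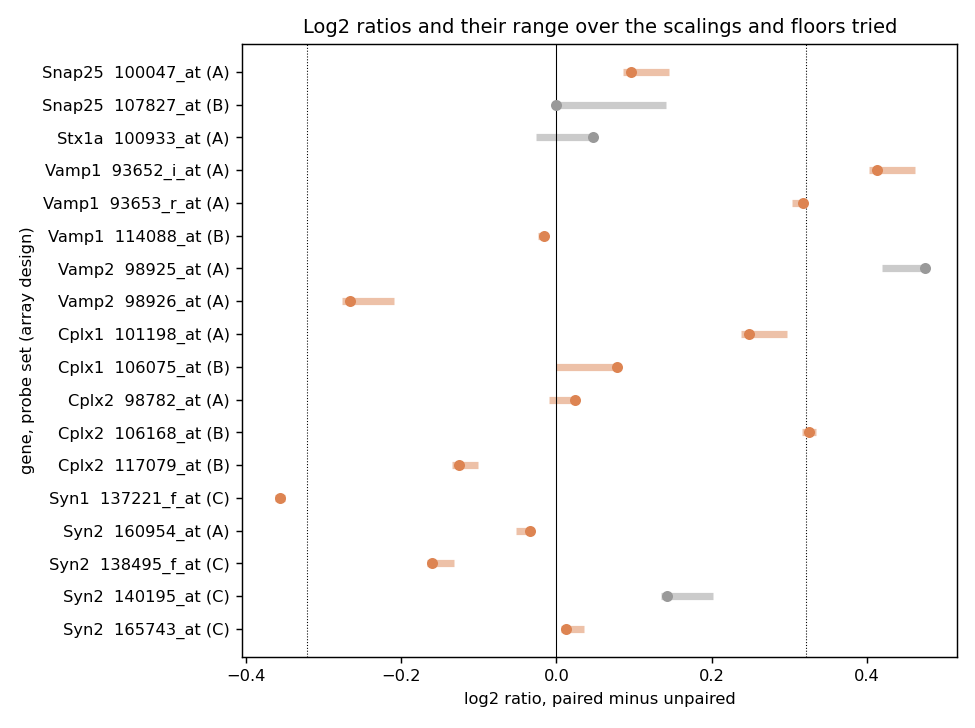
Log2 ratio of each of the 18 probe sets (points) with its lowest and highest value over the scalings and floors tried (bars); grey marks the 4 probe sets below the signal filter and dotted lines a log2 ratio of 0.32. The sign turned for 2 of 18, one of Cplx2 and that of Stx1a, while Vamp1 on design A and Syn1 kept their direction.

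Probe sets of one gene were compared to see how well a difference was repeated. The 4 genes with several kept probe sets, Vamp1, Cplx1, Cplx2 and Syn2, gave 10 pairs. The 3 pairs on the same design differed by a median of 0.17 in log2 ratio, against 0.18 for 3016 such pairs of all genes, and the 7 pairs across designs by 0.17, against 0.19 for 3931 pairs. Direction was shared by 1 of the 3 and 3 of the 7 pairs, where 51.7% and 49.5% of all pairs shared it. That 1 pair was the 2 Vamp1 probe sets of design A, which are not independent measurements. Over these few pairs, probe sets of the same release gene lay about as far apart as those of genes at large.

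The values also differed by design. On design A, 5 of 7 kept probe sets were higher with a median of 0.097; on design B it was 2 of 4 with 0.031, and on design C, which held only synapsins, 1 of 3 with -0.16. Vamp1, Cplx1 and Cplx2 had kept probe sets on designs A and B, and Syn2 on designs A and C. The designs read these genes with different probe sets, so design and probe set cannot be told apart. Snap25, Vamp2 and Syn1 were kept on a single design each, so for them design and gene cannot be told apart.

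The other genes of vesicle release were taken as 4 lists, with 101 genes in all, of which 83 had a kept probe set. Of these 38 were higher and 45 lower in the paired pool, with a median gene log2 ratio of -0.012. With the probe set of highest rank per gene, 28 of 83 were higher, and for the brightest quartile of signal 22 of 62. Under these 2 choices the median over all kept probe sets was -0.0092 and -0.012. The share of all genes that were higher was not computed for them. In the main setting the median was -0.0039 for all 10581 genes, 49.0% of which were higher. At or past a log2 ratio of 0.32 were 4 higher (3.01% of all genes were) and 6 lower (3.82% were), or 12.0% against 6.83% of all genes in either direction, and no gene mean passed 1.5-fold, which 0.387% of all gene means did. Of the 145 kept probe sets behind these means, 3 passed 1.5-fold, where 0.681% of all kept probe sets did. The 3 were 1 each of Slc17a6 (0.85), Cadps (-0.67) and Pclo, an active zone scaffold gene (-0.62, with 0.10 on its other kept probe set). The wider release machinery thus lay on both sides of 0 as well.

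Among 24 other SNARE genes 10 were higher and 14 lower, with a median of -0.016, which was 0.13 on design C alone. Vamp7, a SNARE of late endosomes and lysosomes, had a log2 ratio of 0.38 on 1 kept probe set, from 6.44 to 6.82. Bet1, which acts between endoplasmic reticulum and Golgi, stood at -0.34 and Vamp4, a SNARE of the trans-Golgi network and endosomes, at -0.32. These 3 genes are best known from membrane steps other than the fusion of synaptic vesicles.

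Genes that regulate or take apart SNARE complexes were higher in 8 of 15, with a median of 0.048 that turned to -0.067 with the probe set of highest rank per gene and on design C alone, and to -0.12 on design A alone. Napg, a SNAP adaptor that recruits the NSF ATPase to spent SNARE complexes, was higher on both probe sets of design B. They went from 7.81 to 8.15 and from 6.90 to 7.48, log2 ratios of 0.34 and 0.58. Napa, the alpha form of the same adaptor, was lower on both of its kept probe sets, at -0.18 on design A and -0.31 on design C, and Stxbp3, a syntaxin-binding Munc18 gene, had -0.28. Napb, the beta form, averaged 0.048 over kept probe sets at 0.41, -0.10 and -0.16, so the adaptors of the same step stood on both sides of 0.

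Active zone and priming genes were higher in 7 of 17, with a median of -0.059 that was -0.16 for the brightest quartile of signal and 0.035 on design A alone. Of the 17, 5 (29.4%) lay at or past a log2 ratio of 0.32 in size, against 6.83% of all genes. Cadps, which primes dense-core vesicles, was lower on both probe sets of design A. They went from 7.34 to 6.67 and from 9.03 to 8.79, with log2 ratios of -0.67 and -0.24. Both carry a suffix, and whether they are independent measurements was not checked. Cadps2, a relative of Cadps, was higher at 0.40, and Ppfia3, a liprin scaffold gene, was lower at -0.39. Cadps2 is also in the list of granule cell markers.

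Genes of the vesicle membrane and its recycling were higher in 13 of 27, with a median of -0.0042. It lay above 0 with quantile scaling (0.026) and with loess scaling (0.015). For the brightest quartile of signal it was -0.063, and with the probe set of highest rank per gene -0.038. On designs A, B and C alone it was -0.065, 0.051 and -0.043. Sv2a, a vesicle glycoprotein gene, was lower at -0.41, from 10.35 to 9.94 on a probe set near the top of design B, and Snap91, a clathrin adaptor gene, at -0.38. Slc17a6 averaged 0.25, but its 3 probe sets ran from -0.083 to 0.85.

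**Figure D4:**
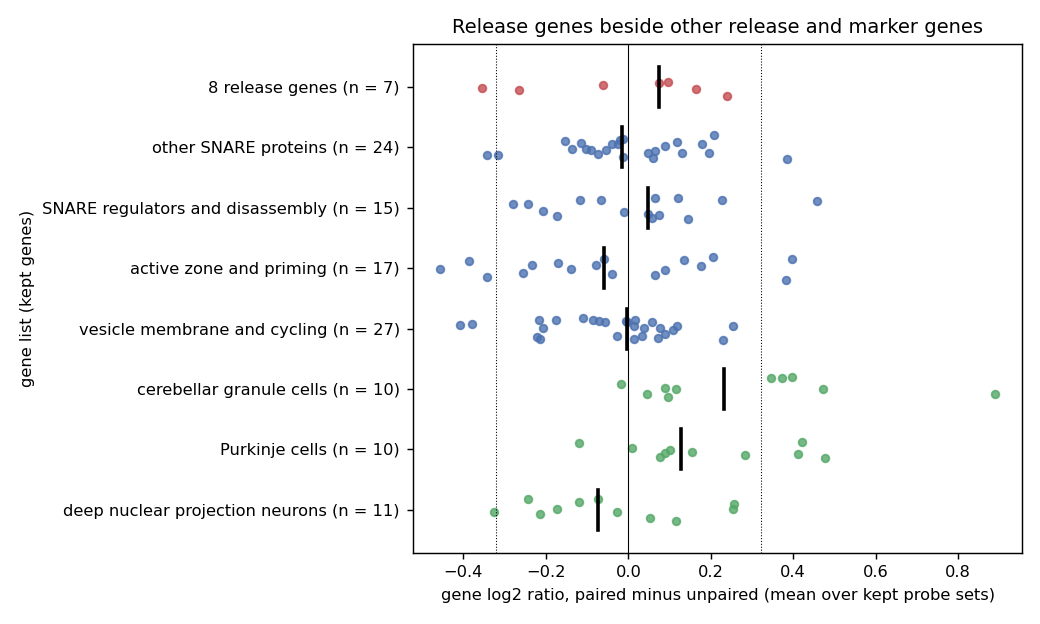
Gene log2 ratios, paired minus unpaired (mean over kept probe sets), of the release genes (red), 4 lists of other release machinery (blue) and markers of 3 neuron types (green), with each list's median as a black bar and dotted lines at a log2 ratio of 0.32. The release lists spread to both sides of 0 with medians from -0.059 to 0.075, and granule cell markers have a median of 0.23.

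Markers of cerebellar cortex mostly read higher for the paired pool, and their values stand beside those of the release genes. Of 10 kept granule cell markers 9 did so, where 49.0% of all genes did, and 5 lay at or past a log2 ratio of 0.32, against 6.83% of all genes in either direction. Their median log2 ratio was 0.23, with Gabra6 at 0.89. Their summed linear signal went from 1018 to 1169 on design A, from 22.9 to 23.8 on design B and from 265 to 331 on design C. The sum on design B was that of a single Slc17a7 probe set. Neurod1, Pax6 and Cbln3 had no kept probe set.

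Of 10 kept Purkinje cell markers 9 read higher and 3 lay at or past 0.32 (6.83% of all genes did), with a median of 0.13 and Pvalb at -0.12. Their summed signal went from 9583 to 9662 on design A, from 24.0 to 21.9 on B and from 379 to 391 on C. The sum on design B was that of a single Rora probe set. Most of the sum on design A came from Pvalb, at log2 signals of 12.53 and 12.47. Pvalb is also in the list of deep nuclear projection neurons and makes up most of that list's sum on design A. Markers of deep nuclear projection neurons were higher in 4 of 11, with a median of -0.073, and their summed signal went from 8631 to 8092 on design A, from 2780 to 2653 on B and from 2124 to 2125 on C. The other marker lists had medians of -0.099 for oligodendrocytes (2 of 12 genes higher), -0.10 for astrocytes and Bergmann glia (4 of 12) and -0.080 for inhibitory nuclear neurons (2 of 4). Microglia had 0.017 (4 of 8), endothelial and mural cells 0.0042 (4 of 7), and choroid plexus and ependyma 0.11 (4 of 5). Neurons of the cortex and of the nuclei alike express release genes, and the part of cell composition in the values of Vamp1, Vamp2, Cplx1 and Syn1 was not tested.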

How the data were processed

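Per the labels' protocols, total RNA of pooled nuclei was made into biotin-labelled cRNA (15 ug) and put on arrays of 1 colour. Each deposited value was taken to be a log2 signal, since values ran from 1.40 to 12.53 without controls. How the authors summarized and normalized them was not given in the sources used here. After 198 control probe sets were set aside, 29137 of 36701 probe sets had a single symbol, 29044 of them matched to RefSeq (GRCm38.p6) by gene identifier.

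The paired array of each design was moved by the median log2 ratio of its brighter probe sets (0.010, 0.0084 and 0.0067 added on A, B and C), and a floor was set at the 25th percentile. Arrays of a design correlated at 0.991 to 0.995. With 1 array per group and design, differences were counted by size (1.5-fold, and a smaller step, log2 ratio 0.32), and no test was made. A gene's value is the mean over its kept probe sets. From each of the 4 release lists the 3 genes furthest from 0 were named; Gabra6, Pcp2, Cbln1, Pvalb, Nefl and the projection neuron and granule cell genes without kept probe sets were named as markers, and Pclo and Napb after their values were seen. The members and lists were chosen with earlier results of these data known. Steps were tested on simulated data. Python 3.11.15, pandas 2.3.3, and statsmodels 0.14.6 for loess (span 0.3) were used.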

Additional observations from a re-analysis of the deposited data

How the results depend on the processing

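The choices tried were 3 other scalings, no floor, 2 other signal filters, no suffixed probe sets, the probe set of highest rank per gene, and each design alone. No kept probe set of the release genes passed 1.5-fold under any of them. Without suffixed probe sets, 1 of 10 lay at or past a log2 ratio of 0.32, against 8.999% of all probe sets in that setting. With the probe set of highest rank it was 1 of 7, against 8.97%. On designs A, B and C alone it was 1 of 7, 1 of 4 and 1 of 3, against 9.27%, 10.9% and 9.03%. With no scaling, where the Cplx2 probe set fell to 0.317, it was 2 of 14, against 9.85%. Having no signal filter added the dim Vamp2 probe set and gave 4 of 18, against 7.81%. The median log2 ratio of kept probe sets was -0.13 with the probe set of highest rank, 0.097 on design A alone and -0.16 on design C alone. The median of the other release genes was -0.041 for the brightest quartile (75th percentile), -0.042 with the probe set of highest rank, -0.042 on design A alone, 0.013 on design B alone and -0.042 on design C alone. No paired analysis was possible because each group had 1 array per design. Stx1a had no kept probe set, which limits what can be said of that transcript. Faint probe sets of Snap25 and Syn2 limit the comparison with their kept ones. For Vamp2 the direction depended on whether its dim probe set was counted.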
